A study of Mus musculus with 8 samples.

Results

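The last 5 Mb of each mouse autosome, at the end that carries the distal telomere, was examined in Hi-C data from mouse embryonic stem cells (mESCs). Hi-C counts how often pairs of loci lie close together in fixed nuclei, and the values here are compartment scores in 100-kb bins of the mm10 genome. A bin belonged to a chromosome end when its start lay within 5 Mb of the start of the last scored bin of that chromosome in the Setdb1 WT library. This rule used position alone and gave 51 bins on each of 19 autosomes, 969 bins in all, out of 23972 bins scored in all 8 libraries. Every bin of the chromosome ends was present in all 8 libraries.

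The 8 groups had 1 library each. All cells of the Setdb1 line descend from the Setdb1 conditional knockout mESC line #33-6. Setdb1 WT was untreated, Setdb1 WT + UNC received 2 µM UNC0642 for 3 days, and Setdb1 KO received 800 nM 4-hydroxytamoxifen (4-OHT) for 5 days, which removes SETDB1. Setdb1 KO + UNC received 800 nM 4-OHT for 2 days and then 2 µM UNC0642 for 3 days. Setdb1 WT and KO therefore also differ in 4-OHT itself, and Setdb1 KO and Setdb1 KO + UNC differ in days of 4-OHT as well as in UNC0642. Suv39h WT and Suv39h DKO, which lacks SUV39H1 and SUV39H2, are separate clones, each untreated or given 2 µM UNC0642 for 3 days, so in them the genotype cannot be told apart from the clone. UNC0642, which the sample labels write as UNC642, inhibits the methyltransferases (MTases) G9a and GLP. The study repeated its Hi-C, but which repeat or pool each file holds is not stated, so no group has a replicate here. The compartment of the cell type's defining genes was looked up as a description. A score is not expression, so it cannot tell the cell type. Of all bins, 38.9% had positive scores in all 8 libraries. All 8 core pluripotency genes examined (Pou5f1, Nanog, Sox2, Klf4, Esrrb, Zfp42, Tfcp2l1 and Prdm14) lay in bins with positive scores in all 8 libraries, none of them at a chromosome end.

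Mouse chromosomes are telocentric: the centromere sits next to one telomere, and nearly all genes lie on the single long arm that runs to the distal telomere. Telomeres consist of TTAGGG repeats bound by the shelterin complex, and the repeats and the chromatin beside them carry heterochromatin marks, among them methylated H3K9. In compartment analysis, chromatin divides into an A compartment, rich in genes and active marks, and a B compartment, which is often attached to the nuclear lamina and marked by H3K9me2. SETDB1, SUV39H1, SUV39H2, G9a and GLP are the MTases that place H3K9 methylation. A positive score marks the A compartment and a negative score the B compartment. The sign of an eigenvector is arbitrary, and how it was set for each chromosome is not stated. The files write some chromosomes with 9 decimals and others with 19, differently in each library. In each of the 152 sets of scores, 1 per chromosome and library, positive scores went with GC content, with r over bins from 0.60 to 0.89, and r between any 2 libraries was at least 0.888 on every chromosome, so no chromosome had opposite signs in different libraries. The score has no physical unit, and because it averages 0 on each chromosome in each library, it can show only redistribution within a chromosome.

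The assembled sequence shows what the last bins contain. Telomere repeats were looked for in the last 120 assembled bases of each end in GRCm38.p6, which shares coordinates with mm10. The 120 bases of chromosome 4 are shown, on the plus strand and 5′ to 3′, because this was the end without a TTAGGG unit there, and no letters are in capitals for that reason.
chr4:156357997-156358116: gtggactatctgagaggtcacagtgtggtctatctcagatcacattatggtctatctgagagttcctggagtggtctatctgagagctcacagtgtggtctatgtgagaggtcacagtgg

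Of the 19 ends, 18 carried TTAGGG units in their last 120 assembled bases, from 6 units on chromosome 9 to 19 on others. The assembly then closes with a gap of 100000 bases, or 150000 bases on chromosomes 4 and 6. Arrays of at least 4 adjacent TTAGGG or CCCTAA units, the 2 strands of the same repeat, lay in 4.95% of terminal bins and in 1.05% of all bins. Leaving out the last bin of each chromosome, 30 of 950 terminal bins (3.16%) held such an array. Of these 30 inner bins, 18 were A and 9 were B in all 8 libraries, so bins with short internal telomere arrays were found in both compartments.

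The last scored bin was never fully assembled and differed from the rest of its end. It was B in all 8 libraries on 10 chromosomes, A in all 8 on chromosomes 7 and 17, and lower than the mean of its end in all 8 libraries on 14 of 19 chromosomes. The 3 lowest of all 969 terminal bins were such last bins. On chromosome 18 the last bin averaged -0.0658 over the 8 libraries, on chromosome 14 -0.0558 and on chromosome 8 -0.0549. These bins held only 2639, 2244 and 1213 assembled bases. Among fully assembled terminal bins, the 3 lowest lay side by side at chr13:115300001-115600000, averaged -0.0361, -0.0346 and -0.0347 from left to right, and overlapped no protein-coding gene. In all, 15 terminal bins were under 50% assembled, and 11 of them were B in all 8 libraries.

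Apart from their outermost bins, most chromosome ends lay in the A compartment. The mean score of the 969 terminal bins in Setdb1 WT was 0.00914 ± 0.0175 (SD over 19 ends) and that in Setdb1 KO 0.00933 ± 0.0183. With UNC0642 these 2 backgrounds had 0.00959 ± 0.0179 and 0.00924 ± 0.0175. Suv39h WT had 0.00833 ± 0.0168 and Suv39h DKO 0.00825 ± 0.0174, and with UNC0642 0.00857 ± 0.0170 and 0.00998 ± 0.0176. The means of the 8 libraries lay close together beside the spread between ends, which was about as large in every library.

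The A share of terminal bins ran from 62.3% in Suv39h WT (95% Wilson interval 59.2 to 65.3%) to 64.9% in Setdb1 WT + UNC (61.9 to 67.9%). Bins outside the last 5 Mb were A in 43.7 to 45.6%. The first 5 Mb scored at the centromere-proximal side were A in 43.2 to 54.9%, with Setdb1 WT + UNC at the low end of that range and Setdb1 KO at its high end. Intervals cover counting error only, and neighbouring bins are not independent. Across all 8 libraries, 566 terminal bins (58.4%) were always A, 289 (29.8%) always B and 114 (11.8%) of mixed sign, and among all bins 38.9% were always A. Pearson r between pairs of libraries over the 969 terminal bins lay between 0.951 and 0.986, and over the other bins between 0.958 and 0.990, as a description of bins that are not independent.

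The A-rich ends and the B-rich ends were the same in every library. The end of a chromosome averaged above 0 in all 8 libraries on 14 chromosomes and below 0 in all 8 on chromosomes 3, 12, 13, 17 and 18. The same 14 ends averaged above the rest of their chromosome in all 8 libraries. This follows from scores that average 0 on each chromosome, so it adds no second result. The distal end of chromosome 15 was the highest, with 0.0344 in Setdb1 WT, 0.0345 in Setdb1 KO, 0.0315 in Suv39h WT and 0.0320 in Suv39h DKO, and with UNC0642 0.0352, 0.0339, 0.0319 and 0.0324 in the same 4 backgrounds. Every library of the Setdb1 line lay above every library of the Suv39h lines at this end.

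Chromosomes 11, 4, 7, 9 and 16 followed, with means over the 8 libraries of 0.0285, 0.0262, 0.0238, 0.0203 and 0.0201. The ranges over libraries of chromosomes 11 (0.0273 to 0.0297) and 4 (0.0243 to 0.0285) overlapped, as did those of 9 (0.0180 to 0.0225) and 16 (0.0171 to 0.0238), so these neighbours were not separated by the spread between libraries, while every library of chromosome 7 (lowest 0.0226) lay just above every library of chromosome 9. Scores of different chromosomes come from separate eigenvectors, so this order is a description. Of the 51 bins of each end, 50 or 51 were A on chromosomes 4 and 11 in every library, 48 to 51 on chromosome 7 and 47 or 48 on chromosome 15.

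Chromosome 2 averaged 0.0162, chromosome 5 0.0161, chromosome 6 0.0151, chromosome 8 0.0127, chromosome 19 0.0121, chromosome 10 0.0118, chromosome 14 0.0114 and chromosome 1 0.00929. On chromosome 10 the positive mean came from a split end, in which 24 to 27 of 51 bins were A. Among the B-rich ends, chromosome 12 averaged -0.00734, chromosome 3 -0.0113, chromosome 13 -0.0204, chromosome 17 -0.0221 and chromosome 18 -0.0237. On chromosome 17 only 1 or 2 of the 51 bins were A, and on chromosome 18 1 to 3.

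**Figure D1:**
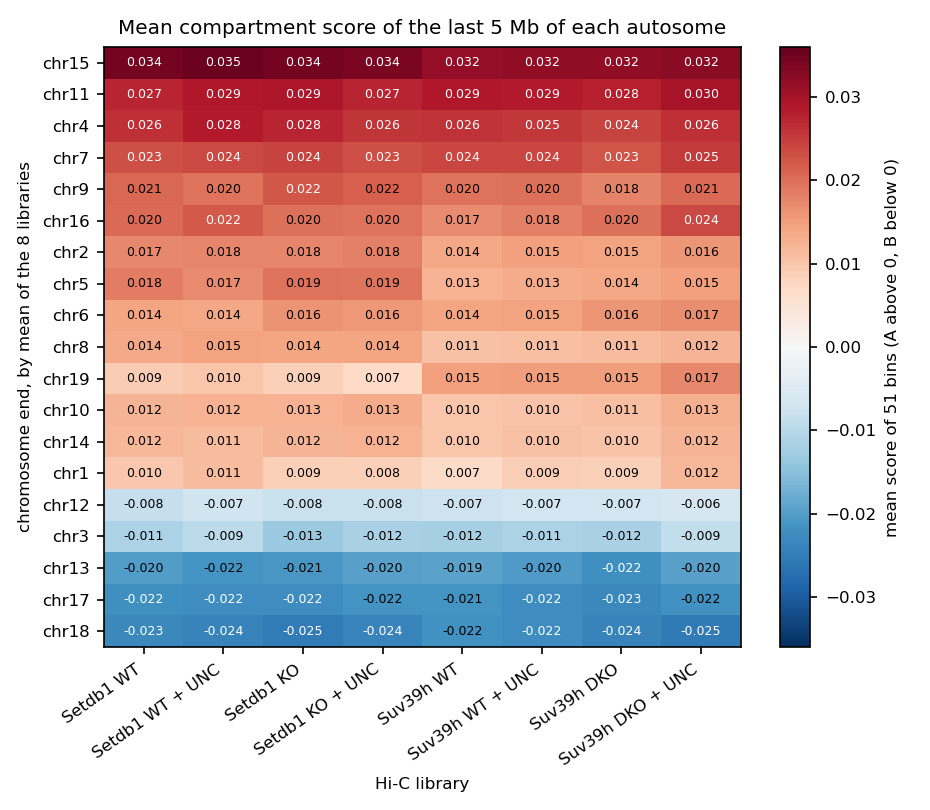
Mean compartment score of the 51 terminal bins (colour and printed value, no unit) for each of 19 chromosome ends (vertical axis, ordered by the mean of the 8 libraries) in each of 8 Hi-C libraries (horizontal axis, 1 library per group). Red marks A and blue marks B: 14 ends are above 0 and 5 ends below 0 in every library.

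Sequence composition, which the rule did not use, went along with the score, though not in the same order. Terminal bins had a mean GC content of 43.8%, against 41.9% in the other bins, and 1.18 protein-coding gene starts per bin against 0.851. In all, 1144 starts lay in terminal bins. The GC content of the ends ran from 37.5% on chromosome 17 to 49.8% on chromosome 4. Over the 19 ends, the mean score and the GC content had a Pearson r of 0.94 and a Spearman rho of 0.95, and score and number of gene starts 0.69 and 0.83. These are descriptions across ends that share all 8 libraries. Over single bins, r between score and GC content was 0.82 in 969 terminal bins and 0.77 in the other 23003. The distal end of chromosome 17 held 4 protein-coding gene starts and that of chromosome 18 held 9, while chromosome 10 held 166, chromosome 15 144 and chromosome 7 137.

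Within classes of GC content, the terminal mean was the higher under 42% and the lower above it. Between 40 and 42% GC, the mean score over the 8 libraries was 0.000514 ± 0.0139 (SD over 114 terminal bins) and -0.00680 ± 0.0201 (SD over 4240 other bins). Between 44 and 46% GC the means were 0.0190 ± 0.0134 over 127 terminal bins and 0.0205 ± 0.0197 over 2899 other bins, although the A share was higher in terminal bins, 93.7% against 86.3%. Above 48% GC the terminal mean was the lower, 0.0306 ± 0.00928 over 193 bins against 0.0376 ± 0.0138 over 1828. These differences have no test here, since neighbouring bins share their chromosome.

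The score changed along the last 5 Mb. In the outermost 0.5 Mb the mean over the 19 ends was -0.000392 as the mean of the 8 libraries, with a lowest library of -0.00281 (Suv39h DKO) and a highest of 0.00280 (Setdb1 KO + UNC). Between 0.5 and 1 Mb it was 0.00720, between 1 and 1.5 Mb 0.00308, and between 1.5 and 2 Mb 0.00758. It was highest between 3.5 and 4 Mb, at 0.0147, with libraries from 0.0132 to 0.0159, and lower again between 4.5 and 5 Mb, at 0.00820. The lowest library between 2 and 4.5 Mb from the end lay above the highest library within the outermost 2 Mb. GC content went along with the score, with 41.4% in the outermost 0.5 Mb and 45.2% between 3 and 3.5 Mb. Repeat-masked sequence took 43.7% of the outermost 0.5 Mb and 27.7% between 3.5 and 4 Mb. The part of composition in the score was not tested.

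**Figure D2:**
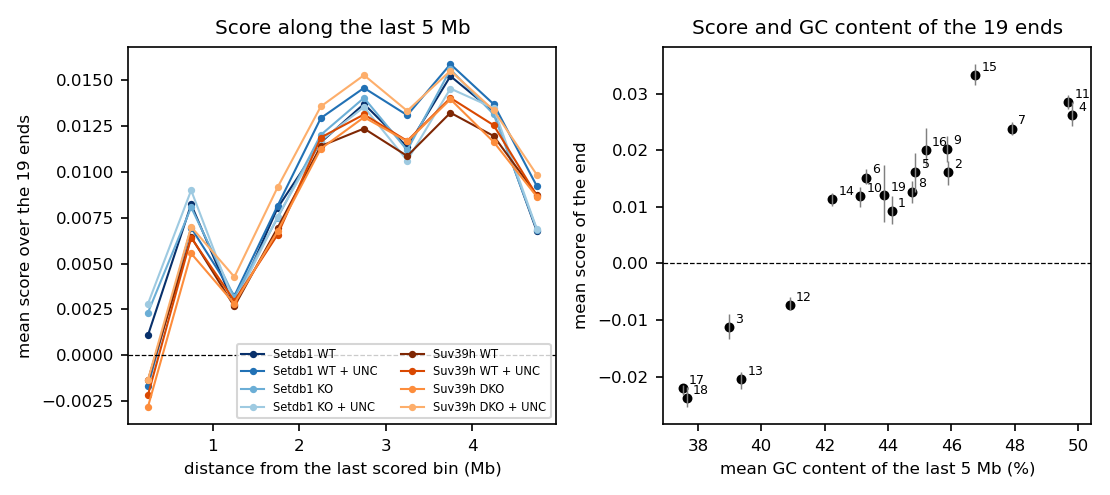
Left, mean compartment score over the 19 ends (vertical axis) against distance from the last scored bin in steps of 0.5 Mb (horizontal axis), 1 line per library. Right, mean score of each end (points, mean of 8 libraries; bars, lowest to highest library; labels, chromosome) against its GC content in percent. Every library is lowest within 0.5 Mb of the end, and the 5 ends below 41% GC are the 5 B-rich ends.

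Named genes at the chromosome ends showed which loci sit in each compartment. Each gene takes the score of the bin that holds its start, so genes in the same bin share 1 score. The distal chromosome 7 imprinted domain, which holds the growth factor gene Igf2, the noncoding RNA H19 and the cell cycle inhibitor Cdkn1c, was A throughout: all 17 listed genes, in 11 bins, had positive scores in all 8 libraries. The mean of 8 libraries was 0.0214 for Igf2, 0.0230 for H19, 0.0268 for Cdkn1c and 0.0159 for Kcnq1ot1, the noncoding RNA that silences part of the domain in cis. The 11 genes of the neighbouring block were A in all 8 libraries too. Its highest bin, at 0.0356, held Fgf3, Fgf4 and Fgf15, of which Fgf4 is a growth factor expressed in pluripotent cells, and Ccnd1, encoding cyclin D1, had 0.0290.

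On distal chromosome 15 all 9 listed Hoxc genes were A, with 0.0343 in the bin of Hoxc13 and 0.0345 in the bin of Hoxc4. These body patterning regulators are silent in mESCs, and their bins kept positive scores between 0.0285 and 0.0385 in every library. The gene-dense ends of chromosomes 2, 4 and 11 were A for all 29, 27 and 22 listed genes. Among them, Ski, a SMAD repressor gene, had 0.0330, and Fasn, encoding fatty acid synthase, had 0.0346.

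Some listed genes lay in the B compartment. Fgf10, a limb and lung growth factor gene, and Isl1, a motor neuron and heart regulator, had -0.0269 and -0.0189 on chromosome 13. Of 14 neuronal adhesion and channel genes in terminal bins, 8 were A and 4 were B in all 8 libraries, and of 13 developmental regulators 9 were A and 3 were B. Sim2 on chromosome 16 (0.0389) and Nanos1 on chromosome 19 (0.0439) were among the A-compartment regulators. Chemokine receptor genes on distal chromosome 9 spanned the border between compartments. Ccr1 had a mean of 0.0153 with libraries from 0.000915 to 0.0276, while the bin of Ccr2 had -0.00899.

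Olfactory receptor genes took 18 terminal bins on chromosomes 7 and 10. Of 76 genes, 56 were B and 7 A in all 8 libraries. The 60 receptor genes on chromosome 10 lay between 0.0162 and -0.0179, and those on chromosome 7 between 0.00741 and -0.00178. None of the 6 vomeronasal receptor genes was A in all 8, and 2 were B in all 8. Of 15 zinc finger (Zfp) genes, 12 were A in all 8. Tcstv1 and Tcstv3, genes of the two-cell stage, lay at the tip of chromosome 13 on opposite sides, at 0.0153 and -0.00835. The highest bins of all ends lay on chromosome 19, at chr19:57300001-57400000 with 0.0629 (Ablim1, an actin-binding LIM protein gene, and Fam160b1) and in the next bin with 0.0543 (Trub1, a pseudouridine synthase gene). The bin chr15:101200001-101300000 followed with 0.0517 and overlapped Nr4a1, a nuclear receptor gene, Acvr1b, an activin receptor gene, Atg101, Grasp and 6030408B16Rik.

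To examine whether H3K9 MTases affect the chromosome ends, each perturbed library was compared with its control. Changes between libraries were small, and most bins kept their compartment. With UNC0642, 95.5% of terminal bins kept their sign in Setdb1 WT (Wilson interval 94.0 to 96.6%), 96.9% in Setdb1 KO, 96.9% in Suv39h WT and 96.5% in Suv39h DKO. With SETDB1 loss 97.2% kept their sign without UNC0642 and 94.5% (92.9 to 95.8%) with it, and with SUV39H1/2 loss 95.8% and 96.6%. Over all bins the same shares lay between 93.7 and 96.9%. Suv39h WT against Setdb1 WT, the difference between untreated lines, kept 95.1% of terminal bins. Each of the MTase comparisons except SETDB1 loss with UNC0642 kept at least as many as the line comparison, an order that changed under other settings. Among bins whose control lay 0.005 or further from 0, UNC0642 in Setdb1 WT kept 98.1% and the line comparison 98.2%. With 1 library against 1, these are descriptions.

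A change of 0.01 or more was used to count bins, and the share of all bins passing it is given as background. With UNC0642 in Setdb1 WT, 26 terminal bins (2.68%) scored higher and 25 (2.58%) lower, against 3.51% and 4.62% of all bins. In Setdb1 KO the counts were 12 (1.24%) and 7 (0.722%), against 0.755% and 0.934%. In Suv39h WT they were 21 (2.17%) and 20 (2.06%), against 2.26% and 2.53%. In Suv39h DKO, 38 terminal bins (3.92%) scored higher and 15 (1.55%) lower, against 3.04% and 3.69% of all bins. The Suv39h DKO pair was the one with the most uneven split at the ends, toward higher scores, and it rests on the centring described with the mean changes.

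For SETDB1 loss without UNC0642, 11 terminal bins (1.14%) were higher and 8 (0.826%) lower, against 1.4% and 0.88% of all bins. With UNC0642 there were 46 (4.75%) and 39 (4.02%), against 7.16% and 5.79%. For SUV39H1/2 loss without UNC0642 there were 31 (3.20%) and 35 (3.61%), against 3.64% and 3.73%, and with UNC0642 38 (3.92%) and 22 (2.27%), against 2.98% and 3.86%. Suv39h WT against Setdb1 WT gave 43 higher (4.44%) and 56 lower (5.78%), against 5.68% and 6.27%. At 0.01 over the last 5 Mb the count was highest between the 2 untreated lines, at 10.2% of terminal bins against 8.77% for SETDB1 loss with UNC0642. At 0.02 the order turned, 0.722% against 0.826%, as it did in the last 2 Mb, 9.77% against 11.5%.

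The mean change over the terminal bins was smaller than the SD over the 19 ends in all pairs but 1. With UNC0642 it was 0.000445 ± 0.00116 in Setdb1 WT, -9.06e-05 ± 0.000980 in Setdb1 KO, 0.000244 ± 0.000732 in Suv39h WT and 0.00174 ± 0.00119 in Suv39h DKO (each SD over 19 ends). In Suv39h DKO, 18 of 19 ends had a higher mean with UNC0642, all but chromosome 18, and the largest difference was 0.00411 on chromosome 16. This pair depends on how chromosomes are centred. The mean that centring removed, inferred from the length of each eigenvector, had a median of 0.00800 over chromosomes in Suv39h DKO + UNC and of 0.00564 to 0.00618 in the other 7 libraries. With that mean added back the change was 0.00352, and with it taken with the opposite sign -4.39e-05, so the general shift of the ends in Suv39h DKO + UNC has no settled direction. SUV39H1/2 loss with UNC0642, which uses the same library, gave 0.00141 ± 0.00160, with 18 of 19 ends higher. It rests on centring in the same way, with 0.00276 when the mean was added back and 7.31e-05 with 11 of 19 ends higher when it was subtracted. Without UNC0642, SUV39H1/2 loss gave -7.85e-05 ± 0.00156. SETDB1 loss gave 0.000182 ± 0.00111 without UNC0642 and -0.000354 ± 0.00176 with it. The latter turned with the length of the stretch, 0.00131 with 13 of 19 ends higher in the last 2 Mb and -0.00115 with 15 of 19 lower in the last 10 Mb.

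**Figure D3:**
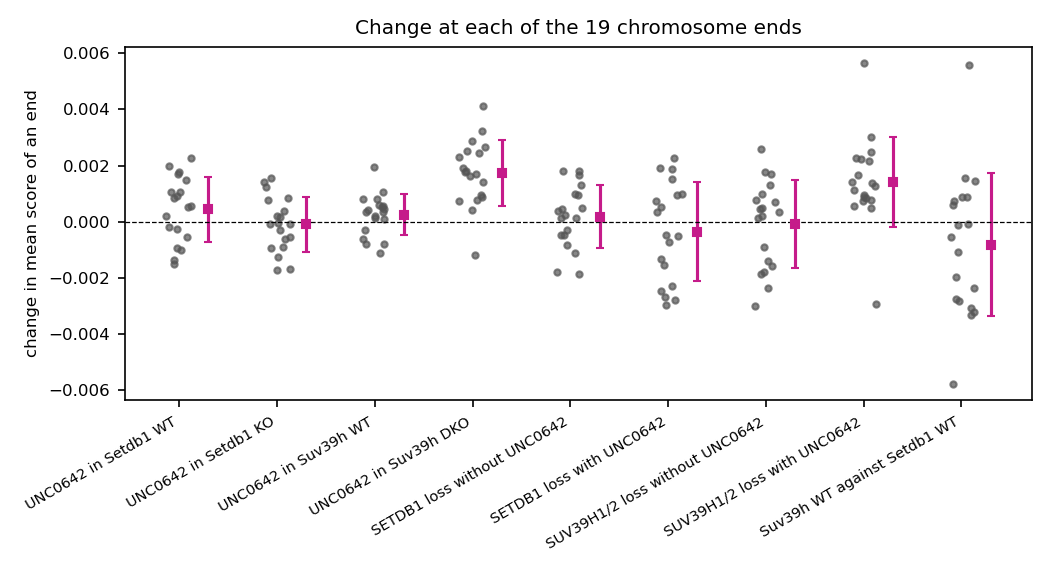
Change in the mean compartment score (vertical axis, no unit) of each chromosome end (grey points, 19 per comparison) between 2 libraries, for 9 comparisons (horizontal axis). Squares and bars give the mean over terminal bins and the SD over the 19 ends: the UNC0642 change in Suv39h DKO averages 0.00174 and is above 0 at 18 ends.

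limma was fitted to all 23972 bins, and again to 478 windows of 5 Mb counted back from each chromosome end, with the 4 backgrounds as a block. After Benjamini-Hochberg adjustment, 0 terminal bins and 0 of 19 terminal windows passed for UNC0642, SETDB1 loss, SUV39H1/2 loss or the difference in UNC0642 effect between lines. For these 4 terms 0 of all 23972 bins and 0 of all 478 windows passed, so the ends did not stand apart in this. At an unadjusted limma p under 0.05, UNC0642 gave 50 terminal bins (5.16%, against 4.95% of all bins) and 2 windows (10.5%, against 7.11%). SETDB1 loss gave 57 terminal bins (5.88%, against 9.1%) and 1 window (5.26%, against 21.1%). SUV39H1/2 loss gave 89 terminal bins (9.18%, against 9.6%) and 4 windows (21.1%, against 14.9%). The UNC0642 difference between lines gave 31 terminal bins (3.20%, against 3.67%) and 0 windows, against 1.67%. With Setdb1 WT left out, 8 terminal bins and 1 terminal window, on chromosome 5, passed for SETDB1 loss, against 1.87% of all bins and 29.7% of all windows, in a fit where Setdb1 WT + UNC alone stood for the Setdb1 WT background.

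The largest terminal window difference with SUV39H1/2 loss was on chromosome 16, at 0.00412 (95% limma interval 0.00162 to 0.00663, adjusted p = 0.228). The end of this chromosome had 0.0171 in Suv39h WT and 0.0197 in Suv39h DKO, and with UNC0642 0.0182 and 0.0238. It holds Sim2 and Dscam, a neuronal adhesion gene whose start bin averaged 0.00678. Both DKO libraries lay above both WT libraries, and the difference did not pass the adjusted test.

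No run of 2 or more adjacent terminal bins changed by 0.01 or more in every pair of UNC0642, SETDB1 loss or SUV39H1/2 loss. For UNC0642, 0 terminal bins did so in all 4 backgrounds, and of all bins 1 was higher and 0 were lower. For SETDB1 loss 3 single bins did so in both pairs, 2 higher and 1 lower, against 0.567% and 0.129% of all bins. The bin of Adrb1, a beta-adrenergic receptor gene, and Ccdc186 on chromosome 19 was lower by 0.0128 as the mean of the pairs, the last bin of chromosome 12 at Tmem196 was higher by 0.0139, and a bin without protein-coding genes on chromosome 2 was higher by 0.0113. For SUV39H1/2 loss 6 single bins did so, 3 in each direction, against 0.35% of all bins higher and 0.509% lower. These counts were near or under the background. Among them, Gfra1, a GDNF receptor gene on chromosome 19, had -0.0104 in Suv39h WT and 0.0144 in Suv39h DKO, and with UNC0642 -0.0137 and -0.000126. None of these bins passed the adjusted test.

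The 121 bins of all listed genes differed by 0.01 or more in 0.826 to 11.6% of cases over the 9 pairs, and all bins in 1.69 to 12.9%. In the Hoxc cluster, the block of Fgf genes and Ccnd1, and the gene-dense end of chromosome 2, 0 bins did so in all 9 pairs, and in the other lists 0 to 5 bins did so per pair. Both bins of the two-cell-stage genes Tcstv1 and Tcstv3 were lower with UNC0642 in Suv39h DKO, from 0.0196 to 0.00904 and from -0.00191 to -0.0123, and the latter bin, the last of its chromosome, held 21639 assembled bases. The highest count was in the type II keratin genes on distal chromosome 15, which encode epithelial intermediate filaments. Over their 8 bins, at chr15:101300001-102100000, Setdb1 WT averaged 0.0222 and Setdb1 KO 0.0228, and with UNC0642 0.0310 and 0.0201. Suv39h WT had 0.0247 and Suv39h DKO 0.0270, and with UNC0642 0.0259 and 0.0275. Setdb1 WT + UNC stood highest of the 8 libraries. With UNC0642 in Setdb1 WT, 4 of the 8 bins were higher by 0.01 or more, and with SETDB1 loss under UNC0642 5 were lower, both resting on the same Setdb1 WT + UNC library, against 3.51% and 5.79% of all bins. The list is singled out here for having the highest count. By limma 2 of the 8 bins had an unadjusted p under 0.05 for each of UNC0642, SETDB1 loss and SUV39H1/2 loss, against 4.95%, 9.1% and 9.6% of all bins, and the lowest adjusted p values were 0.957, 0.483 and 0.5.

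The difference between the lines was the comparison in which chromosome ends passed the test. For Suv39h WT against Setdb1 WT background, 2 libraries against 2, limma called 5 of 19 terminal windows at an adjusted p under 0.05, against 12.3% of all windows, and 3 of 969 terminal bins, against 0.363% of all bins. The 2 libraries of each background were 1 untreated and 1 given UNC0642, so the p-values measure no spread between clones or repeat libraries. The end of chromosome 19 was higher in the Suv39h line by 0.00528 (95% interval 0.00306 to 0.00751, adjusted p = 0.0295). Lower ends were those of chromosome 5 by -0.00470 (adjusted p = 0.0295), chromosome 8 by -0.00345 (adjusted p = 0.0341), chromosome 2 by -0.00321 (adjusted p = 0.0388) and chromosome 15 by -0.00308 (adjusted p = 0.0408), all by limma. Without Suv39h WT, or without Suv39h WT + UNC, 0 terminal windows and 0 of all 478 windows passed. Without Setdb1 KO or without Setdb1 KO + UNC 1 passed, chromosome 19, against 2.51% of all windows. Without Suv39h DKO or Suv39h DKO + UNC 3 passed, chromosomes 5, 8 and 19, against 7.95%. With windows of 2 Mb 1 end passed, chromosome 8, against 8.49% of all such windows.

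At the chromosome 19 end the 4 libraries of the Setdb1 line had 0.00905 (WT), 0.0101 (WT + UNC), 0.00857 (KO) and 0.00730 (KO + UNC). The Suv39h libraries had 0.0146 (WT), 0.0151 (WT + UNC), 0.0150 (DKO) and 0.0173 (DKO + UNC). The lines did not overlap. At the chromosome 5 end the Setdb1 line had 0.0184, 0.0171, 0.0194 and 0.0193 in the same order, and the Suv39h lines 0.0127, 0.0134, 0.0140 and 0.0147, again without overlap. The 4 Suv39h libraries also lay below all 4 Setdb1 libraries at the ends of chromosomes 2, 8 and 15, and the other 14 ends overlapped. Over all 478 windows, the Suv39h libraries lay above all Setdb1 libraries in 12.8% and below all of them in 14%.

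**Figure D4:**
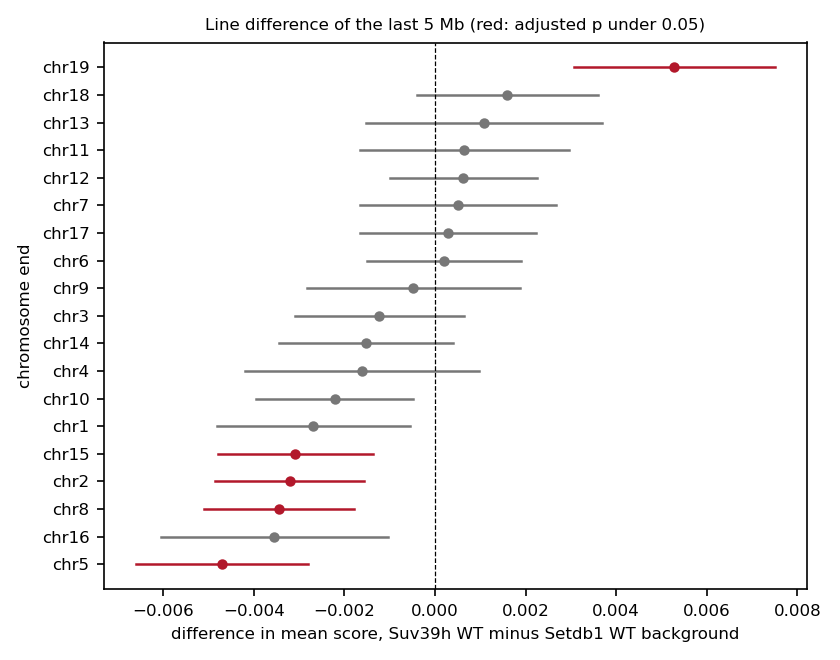
Difference in mean compartment score (horizontal axis, no unit) between the Suv39h WT and Setdb1 WT backgrounds for the last 5 Mb of each autosome (vertical axis), with 95% limma intervals. Red marks the 5 ends with an adjusted p under 0.05: chromosome 19 is higher by 0.00528, and chromosomes 5, 8, 2 and 15 are lower.

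On chromosome 19, the runs of adjacent bins that differed by 0.01 or more between lines in both pairs lay at the inner side of the terminal stretch. A run of 4 adjacent bins, chr19:56300001-56700000, was higher in the Suv39h line by 0.0197 as the mean of both pairs. Among the genes it overlapped were Habp2, a serine protease gene, Nrap, a muscle anchoring protein gene, Dclre1a, a DNA crosslink repair nuclease gene, and Nhlrc2. Its mean was 0.0174, 0.0248, 0.0192 and 0.0196 in Setdb1 WT, WT + UNC, KO and KO + UNC, and 0.0393, 0.0424, 0.0420 and 0.0449 in Suv39h WT, WT + UNC, DKO and DKO + UNC. A second run, chr19:56800001-57000000, was higher by 0.0206 and overlapped Ccdc186, Tdrd1, a germline Tudor protein gene, Vwa2 and Afap1l2. Both runs were A in both lines. The first run begins where the last 5 Mb begin, and the 2 bins just before it also averaged higher in the Suv39h line, -0.00247 in Setdb1 WT against 0.0165 in Suv39h WT, and with UNC0642 0.00325 against 0.0138. The bin next to the run did not pass 0.01 in both pairs.

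The 3 terminal bins called by limma lay within these runs. Values are given for 2 of them. The bin of Dclre1a and Nhlrc2 had 0.0269, 0.0333, 0.0258 and 0.0259 against 0.0502, 0.0491, 0.0549 and 0.0519 (difference 0.0196, adjusted p = 0.0255, limma). The bin of Vwa2 and Afap1l2 had 0.0279, 0.0252, 0.0312 and 0.0292 against 0.0484, 0.0477, 0.0505 and 0.0547 (difference 0.0215, adjusted p = 0.0135, limma). In both bins every Suv39h library was above every Setdb1 library. The terminal calls rested on single libraries. Leaving out Setdb1 WT, Suv39h WT or Suv39h WT + UNC, so that 1 library stood for its background, lost most or all of them. Most of the calls over all bins were lost in these runs too.

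**Figure D5:**
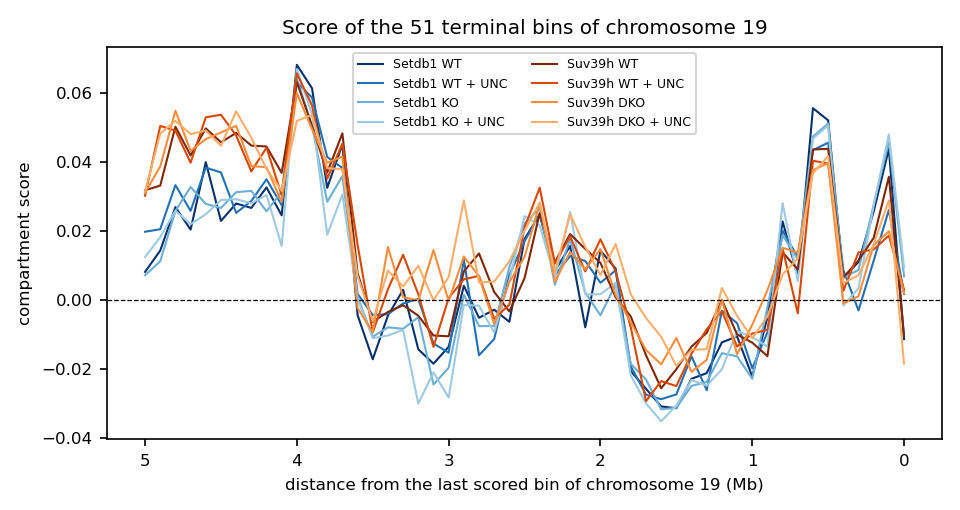
Compartment score (vertical axis, no unit) of the 51 terminal bins of chromosome 19 against distance from the last scored bin in Mb (horizontal axis, chromosome tip at the right), 1 line per library, Setdb1 line in blue and Suv39h lines in orange. Between about 4 and 5 Mb from the tip the Suv39h libraries lie above the Setdb1 libraries, and the 2 lines run together over most of the remaining stretch.

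Further single bins of chromosome 19 differed by 0.01 or more between lines in both pairs without passing the test. The bin of Ccdc172 had -0.00523 and -0.0161 in Setdb1 WT without and with UNC0642, and 0.0134 and 0.00696 in Suv39h WT. One bin within Atrnl1, chr19:57700001-57800000, had -0.00443, 0.00172, 0.00774 and 0.0160 in the same order. In all, 11 terminal bins were higher in the Suv39h line in both pairs, 10 of them on chromosome 19, and 1 was lower, the last bin of chromosome 8, which held 1213 assembled bases. Over all bins, 0.855% were higher and 0.964% lower in both pairs. Lines differ in origin and culture history as well as in their engineered alleles, and these cannot be told apart here.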

How the data were processed

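Hi-C libraries were cut with DpnII. The authors aligned reads to mm10 with the 4DN Hi-C pipeline and built matrices in Juicer Tools from reads whose mapping quality exceeded 10. The deposited values are compartment scores, which the authors took from KR-normalised intrachromosomal maps in 100-kb bins of the autosomes. The score files carry no counts. The study lists read numbers for both Hi-C repeats of each condition, but which repeat or pool a file holds is not stated, so the depth behind each file was not used. The deposited scores average 0 on each chromosome.

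Genes came from GENCODE vM21 and base composition from GRCm38.p6 (RefSeq). limma 3.58.1 (R 4.3.3), tested on simulated data, was fitted to all 23972 bins and to 5-Mb windows of at least 25 bins, with a term for each background and 1 for UNC0642. A second fit added a line by UNC0642 term and left 2 residual degrees of freedom. Benjamini-Hochberg adjustment ran over all bins or windows at 0.05. The first fit left 3 residual degrees of freedom, so its only error is how the UNC0642 difference varies among backgrounds. Pairs of single libraries were described by changes of at least 0.01, a limit the study also uses.

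Named stretches were the 3 longest runs of at least 2 adjacent terminal bins passing 0.01 one way in all pairs of a comparison. All 19 ends, the 3 highest and 3 lowest bins and listed genes were also described, and single bins passing 0.01 in all pairs were named after their values were seen. The members and gene lists were chosen with earlier results of these data known. Alternatives were root-mean-square scaling, quantile normalization, the last 2 or 10 Mb, other centring, a change of 0.02, only bins at least 0.005 from 0 in the control, 2-Mb windows, no background term, robust limma and leaving out each library. Leaving out bins under 50% assembled, and other centring in limma, were added after seeing the data. Values of some genes and some end sequences are not reported here.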

Additional observations from a re-analysis of the deposited data

How the results depend on the processing

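Scaling to a common root mean square or quantile normalization kept each of the library means, shares and counts of calls within its error or within 1.5 times, except the Setdb1 KO mean (0.00912 under quantile normalization). The mean terminal score over the 8 libraries, 0.00905 here, was 0.00471 in the last 2 Mb, 0.00971 in the last 10 Mb, 0.0155 after adding the mean implied for each chromosome and 0.00264 after subtracting it. In the last 2 Mb, 9 ends were above 0 in all 8 libraries. The percent of terminal bins changed by 0.02 or more was 0.310, 0.103, 0 and 0.206 for UNC0642 in Setdb1 WT, Setdb1 KO, Suv39h WT and Suv39h DKO. It was 0 and 0.826 for SETDB1 loss without and with UNC0642, 0.103 and 0.413 for SUV39H1/2 loss, and 0.722 between untreated lines. For SETDB1 loss with UNC0642, 11.5% of bins in the last 2 Mb changed by 0.01, and for UNC0642 in Suv39h DKO 9.70% with the implied mean added. The mean change with UNC0642 in Setdb1 WT was -0.000812 in the last 2 Mb, and in Suv39h DKO 0.00352 and -4.39e-05 with the implied mean added and subtracted.

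Among bins whose control lay 0.005 or further from 0, the percent keeping their sign was 98.1, 99.4, 99.3 and 98.6 for UNC0642 in the 4 backgrounds, 99.3 and 97.5 when SETDB1 was lost, 98.8 and 99.1 when SUV39H1/2 were lost, and 98.2 between untreated lines. In the last 2 Mb it was 93.2, 95.2 and 94.2 for UNC0642 in Setdb1 WT, Setdb1 KO and Suv39h DKO, 92.0 for SETDB1 loss and 94.5 for SUV39H1/2 loss with UNC0642, and 92.7 between lines. In the last 10 Mb it was 95.3 for UNC0642 in Suv39h WT and 94.6 for SUV39H1/2 loss with UNC0642. With the implied mean added it was 93.8 for UNC0642 in Suv39h DKO, 93.1 for SUV39H1/2 loss with UNC0642 and 95.9 between lines. With it subtracted it was 93.9 and 94.9 for UNC0642 in Setdb1 WT and Suv39h WT, 95.1 for SUV39H1/2 loss with UNC0642 and 93.3 between lines. The cause was not tested.

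Called terminal windows between lines numbered 1 with windows of 2 Mb (chromosome 8; 8.49% of all windows), 3 with the implied mean added (chromosomes 2, 5 and 19; 9.21% of all) and 3 with it subtracted (chromosomes 5, 16 and 19; 5.65% of all). Leaving out 1 library gave 0 to 6 windows and 0 to 4 bins between lines, and 0 to 1 windows and 0 to 8 bins for SETDB1 loss. The 6 windows (31.6%) and 4 bins (0.413%) without Setdb1 WT + UNC stood against 27.4% of all windows and 0.701% of all bins, and the 8 bins (0.826%) and 1 window (5.26%) without Setdb1 WT against 1.87% and 29.7%. In alternative runs that kept all 8 libraries, UNC0642, the line by UNC0642 term and SUV39H1/2 loss each gave 0 terminal bins and windows. These runs called 0 of all bins and at most 0.209% of all windows for these terms. With 1 library left out, none of these terms called a terminal bin or window, while each called windows elsewhere in some runs. Most of those were for the line by UNC0642 term without Setdb1 KO or without Setdb1 KO + UNC. The labels give no replicate numbers to pair by. UNC0642 was compared within the 4 backgrounds, and without the background term it gave 0 calls as well. The depth behind each file could not be assigned, so what depth limits was not tested.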
